A study of Mus musculus with 2 samples.

Results

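Complement is a system of plasma proteins and receptors that tags microbes and dying cells for uptake and can open pores in membranes. This account follows 9 of its genes, chosen by symbol from the 32285 genes of each count matrix: C1qa, C1qb and C1qc, which encode the 3 chains of C1q, then C4b, C2, C3, Cfb, Cfp and C3ar1. All 9 were found in both matrices, and each had more than 20 UMIs among the kept cells of both libraries. Counts are of UMIs, short random tags by which PCR duplicates of 1 transcript are counted a single time.

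The study profiled single liver cells from 2 tumour-bearing mice, 1 per group, both Glul f/f, that is, with Glul flanked by loxP sites. Glul encodes glutamine synthetase (GS). AAV8-GFP was given to the control animal, AAV8-Cre to the GS-KO animal, and cells were taken 7 weeks later. AAV8 is a viral vector that reaches mainly hepatocytes, and Cre cuts out floxed DNA; the labels name no promoter for Cre. From the supernatant of a collagenase-perfused liver, cells were enriched with magnetic beads against F4/80, a macrophage surface protein, and dead cells were removed, so the mix of classes is that of the preparation and not of the liver. The title describes β-catenin mutant liver cancer, and the labels do not say which cells came from tumour. The labels name a 3′ library kit for live cells but in 1 place call it single-nucleus, and the sources used here do not resolve this. With 1 mouse per group, no difference between the libraries can be tested. All intervals below are 95% intervals for counting error only.

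C1q binds immune complexes and dying cells and starts the classical pathway, in which its partner proteases cut C4 and then C2. The resulting enzyme cuts C3, the point at which all routes meet. In the alternative pathway, factor B (Cfb) joins deposited C3b to form a second enzyme, which properdin (Cfp) stabilises. C3ar1 is the receptor for C3a, the small fragment released from C3. The liver supplies most plasma complement, and tissue macrophages are a known source of C1q.

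The labels state at least 7500 sequenced cells, against 5074 control and 1366 GS-KO barcodes in the matrices. The control library gave 3251 kept cells with a median of 7320 UMIs, and the GS-KO library 655 cells with a median of 4104. Barcodes over the mitochondrial limit made up 35.5% of control barcodes and 50.8% of GS-KO barcodes, and 1 barcode sequence was shared by the libraries, but none among the kept cells. Glul stood at 3043 CPM in control and 98.3 CPM in GS-KO hepatocyte-like cells, where CPM is a gene's UMIs per 1000000 UMIs summed over the cells of a class. Which stretch of Glul is floxed is not given, so whether the counted 3′ end lies in it was not tested. Cells were clustered with all complement genes left out, and a class was named only from other marker genes. The named classes, with control and GS-KO cell numbers, were macrophage-like (829 and 51), hepatocyte-like (506 and 35), endothelial-like (127 and 88), B-like (470 and 120), monocyte-like (109 and 51), T-like (274 and 84), neutrophil-like (99 and 103) and NK/ILC-like (67 and 18). Clusters 2 and 9 carried 8 and 14 macrophage markers but were led by haemoglobin genes, and they stayed unnamed, as did cluster 13 (dividing cells with granule genes) and cluster 1 (low RNA).

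All 9 genes lie on the minus strand (GENCODE M21, GRCm38), and several are neighbours. C1qb (chr4:136880129-136886187), C1qc (chr4:136889804-136893065) and C1qa (chr4:136895917-136898803) sit within 18675 bases of each other. Cfb (chr17:34856374-34862518) lies 85 bases from C2 (chr17:34862604-34898265), and C4b (chr17:34728380-34743882) lies 112491 bases from Cfb. C4a, a near copy of C4b, lies 65209 bases from it and had 4.79 CPM in control hepatocyte-like cells, so C4b values are uncertain by any reads the authors' counting split between the copies. The annotated readthrough gene Gm20547 spans Cfb and C2 and had no row of its own in the matrices. C3 is at chr17:57203970-57228136, C3ar1 at chr6:122847138-122856161 and Cfp on chrX:20925454-20931555.

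RefSeq promoter sequence (GRCm38.p6) was held for 5 of the 9 genes. The 200 bases before the start are shown for C1qb and Cfp, which were highest in macrophage-like cells, and for C3, which was highest in hepatocyte-like cells, since these represent the main division among the genes. Capitals mark motif matches, and all 3 sequences are minus strand, 5′ to 3′.
C1qb, chr4:136886201-136886400: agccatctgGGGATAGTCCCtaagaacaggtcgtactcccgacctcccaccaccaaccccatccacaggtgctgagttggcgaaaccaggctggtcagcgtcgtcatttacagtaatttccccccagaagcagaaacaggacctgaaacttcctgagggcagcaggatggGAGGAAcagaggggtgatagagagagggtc
Cfp, chrX:20931556-20931755: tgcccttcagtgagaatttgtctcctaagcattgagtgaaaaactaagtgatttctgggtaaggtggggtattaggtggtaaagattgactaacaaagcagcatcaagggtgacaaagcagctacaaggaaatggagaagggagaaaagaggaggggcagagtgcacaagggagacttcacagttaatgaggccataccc
C3, chr17:57228137-57228336: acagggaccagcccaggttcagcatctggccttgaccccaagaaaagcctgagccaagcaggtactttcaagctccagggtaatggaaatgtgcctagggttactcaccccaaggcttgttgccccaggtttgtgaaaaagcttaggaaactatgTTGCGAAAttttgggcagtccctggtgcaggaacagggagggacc

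A set of 7 motifs, chosen after expression values were known, was searched on both strands of these windows. C1qb held the PU.1 core GAGGAA, which starts 30 bases before the start site. It also held the NF-kB motif (GGGA, any 3 bases, TCC) on both strands, in overlapping matches that begin 191 and 190 bases before the start. C3 held the C/EBP motif TTGCNNAA, which begins 45 bases before the start, and Cfp held no match. Of 32851 mouse promoters, 19.0% held GAGGAA, 3.17% the NF-kB motif and 7.47% TTGCNNAA. The other 4 motifs were not matched in these 3 windows: the interferon motif (GAAA, any 2 bases, GAAA; 2.27% of promoters), the MAF motif TGCTGAC (3.21%), the HNF3 motif TGTTTAC (2.51%) and the TATA box TATAAA (9.96%). A match describes letters only, and the PU.1 core in particular was common.

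The 3 C1q genes were macrophage genes in both libraries. In macrophage-like cells C1qa stood at 9035 CPM (8990 to 9080) in the control against 9031 CPM (8832 to 9233) in the GS-KO library. C1qb stood at 7053 and 7989 CPM, and C1qc at 4656 and 5382 CPM. All 3 chains were detected in 829 of 829 control and 51 of 51 GS-KO macrophage-like cells, which held a median of 415 and 400 C1q UMIs per cell. Of all C1q UMIs in kept cells, 72.4% lay in the macrophage-like class in the control against 72.1% in the GS-KO library. Most of the rest lay in cells with macrophage markers that were left unnamed: with clusters 2 and 9 joined, a choice made after seeing the data, the control share was 91.5%. Another 6.29% lay in cluster 13, which carried 5 macrophage markers. Its control cells had 16540 C1q CPM, with all 3 chains in 83 of 86 cells, and its 11 GS-KO cells had 305 CPM.

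Every other named class had far less C1q, and each had more in the control than in the GS-KO library. NK/ILC-like cells, too few in the GS-KO library for a ratio, had 173 and 9.01 C1q CPM, from 67 and 1 UMIs. In unnamed cluster 1 the direction was opposite, at 959 and 1897 C1q CPM (ratio 1.98, 1.64 to 2.38, beside 19.5% of genes called higher). C1qa was at 1959 CPM in control endothelial-like cells and 119 CPM in GS-KO ones. In monocyte-like cells it was at 924 and 17.7 CPM, in neutrophil-like cells at 144 and 9.66 CPM, and in B-like cells at 119 and 11.9 CPM. T-like cells had 52.5 and 7.53 CPM, and hepatocyte-like cells 57.1 and 4.91 CPM. The intervals of the 2 libraries do not overlap in any of these 6 classes.

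To compare detection at equal depth, each cell was thinned to 1000 UMIs, which left out 197 control and 56 GS-KO cells with fewer. C1qa was then seen in 98.9% of control macrophage-like cells (97.9% to 99.5%, median depth before thinning 19644 UMIs). B cells are not known to make C1q, and 10.5% of control B-like cells (7.86% to 13.7%, median depth 3668) had a C1qa UMI. Median depths before thinning also differed, at 5696 UMIs in T-like and 30325 in hepatocyte-like cells. Whether any of these shares is background was not tested. The shares of 5.49% in T-like and 7.16% in hepatocyte-like cells were below that of B-like cells. Those of 13.1% in monocyte-like and 15.6% in neutrophil-like cells were above it, with intervals that overlapped. The endothelial-like share, 24.1% (16.7% to 33.0%), lay above it. Before thinning, 30.9% of B-like and 100% of macrophage-like control cells had a C1qa UMI.

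Much of this outside C1q lay in a few cells. With a limit of 20 C1q UMIs per cell, set after the values were seen, 12 of 127 control endothelial-like cells held 95.2% of that class's C1q UMIs, and the class fell from 4481 to 293 C1q CPM without them. In control monocyte-like cells, 8 of 109 cells held 93.9%, and the level without them was 153 CPM. No GS-KO monocyte-like cell reached the limit. In control hepatocyte-like cells 11 of 506 cells held 48.1%. Clec4f, a Kupffer cell lectin, moved the same way, at 1357 CPM in control and 96.8 CPM in GS-KO endothelial-like cells and at 304 and 5.05 CPM in monocyte-like cells, and its part in the C1q values was not tested.

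C1qa held the largest share of C1q UMIs in most classes of the control library. C1qa made up 43.6% of the C1q UMIs of control macrophage-like cells, 43.4% in B-like, 43.7% in endothelial-like and 44.0% in monocyte-like cells. It made up 40.3% in hepatocyte-like cells. In T-like cells C1qb, at 42.9% (36.8% to 49.0%), exceeded C1qa, at 38.0%, and in neutrophil-like cells the shares were 42.6% and 38.3%, from 94 C1q UMIs. In GS-KO macrophage-like cells the C1qa share was 40.3%, with C1qb at 35.7% and C1qc at 24.0%, against 34.0% and 22.4% in the control.

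**Figure D1:**
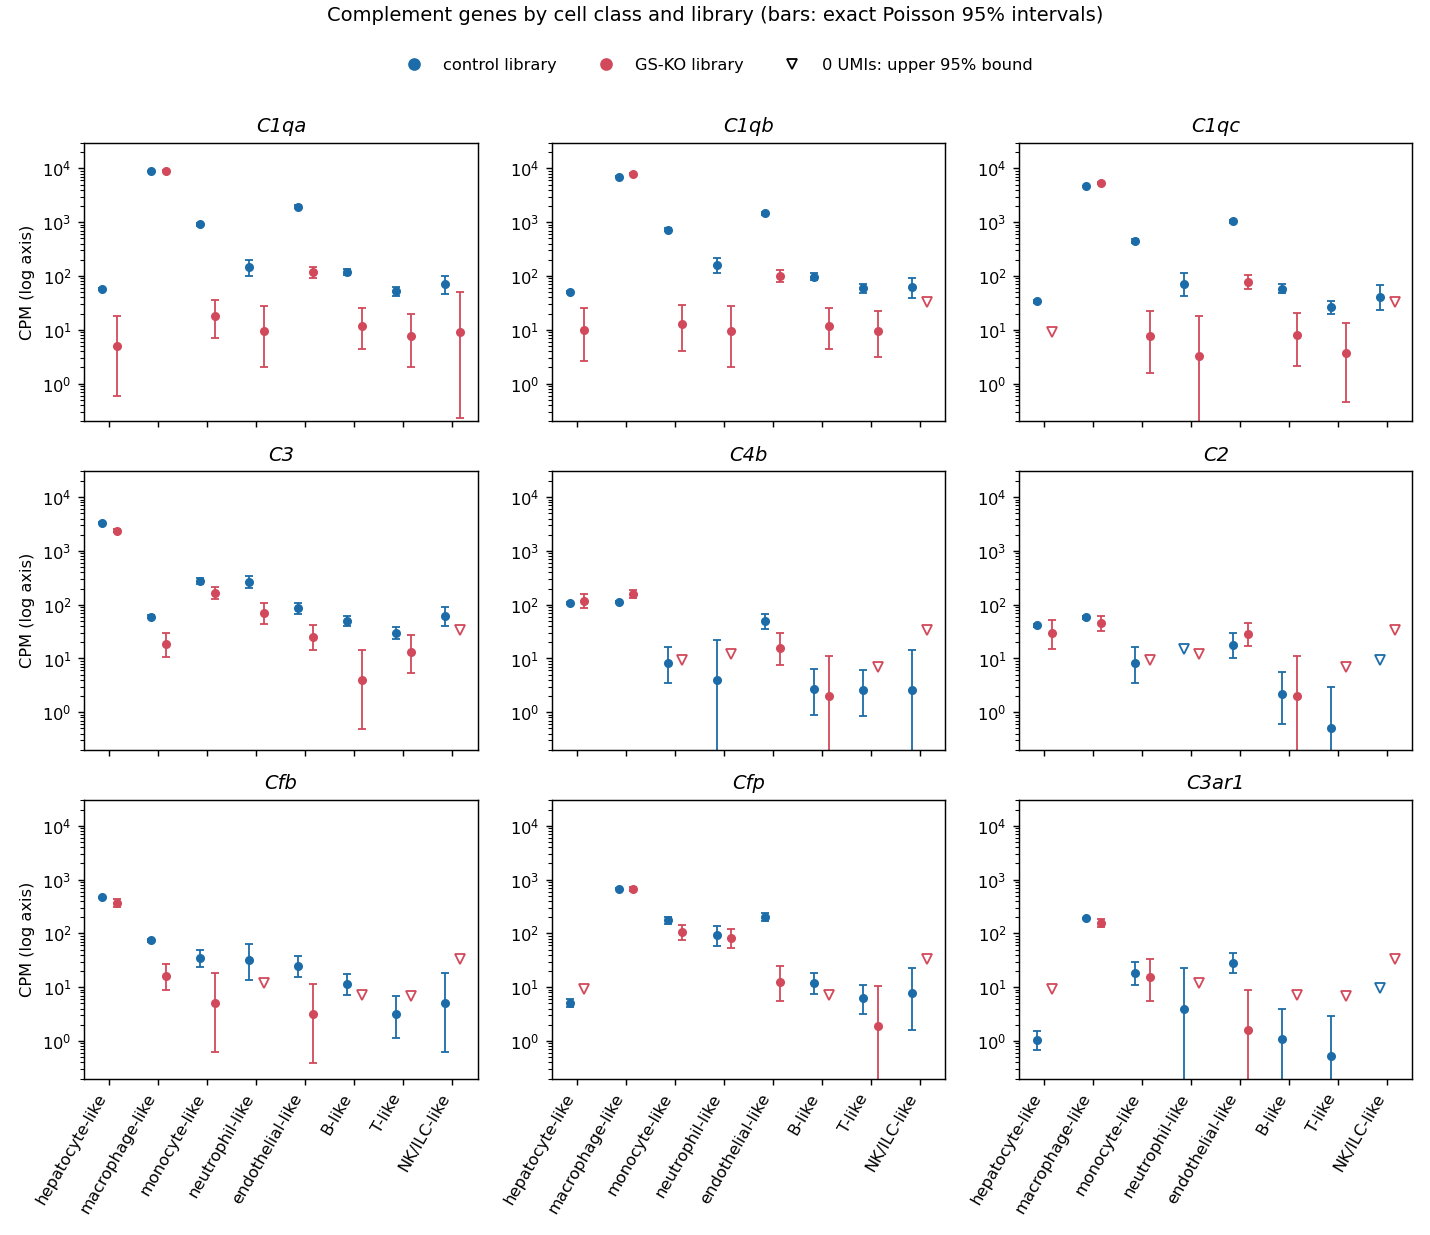
CPM on a log axis for each of the 9 genes in 8 cell classes, control in blue and GS-KO in red, with exact Poisson 95% intervals and open triangles for the upper bound at 0 UMIs. The C1q genes, Cfp and C3ar1 are highest in macrophage-like cells, C3 and Cfb in hepatocyte-like cells, and C4b and C2 stand close together in both.

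C4b and C2, the next components of the classical pathway, were shared between hepatocyte-like and macrophage-like cells. C4b stood at 113 CPM (108 to 119) in control macrophage-like and 108 CPM (104 to 112) in control hepatocyte-like cells, and these intervals overlap. In the GS-KO library the values were 161 CPM (136 to 191) and 118 CPM (86.9 to 156). C2, the protease partner of C4, stood at 58.4 CPM (54.8 to 62.2) in control macrophage-like and 41.2 CPM (38.7 to 43.8) in control hepatocyte-like cells. Its GS-KO values were 44.99 CPM (32.0 to 61.5) and 29.5 CPM (15.2 to 51.5), whose intervals overlap.

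By share of UMIs, control hepatocyte-like cells held 51.4% of C4b and 46.7% of C2, and macrophage-like cells 37.9% and 46.3%. In the GS-KO library, with 35 hepatocyte-like cells, those cells held 21.4% of C4b and 12 of the 80 UMIs of C2. Macrophage-like cells there held 62.5% of C4b and 48.8% of C2, and endothelial-like cells 22.5% of C2 from 18 UMIs. Lymphocytes had almost none: control B-like cells had 5 UMIs of C4b and 4 of C2, and T-like cells 5 and 1. At 1000 UMIs per cell C4b was seen in 10.98% of control macrophage-like and 9.61% of hepatocyte-like cells but in 0 of 456 B-like cells, which allows up to 0.806% of cells with a C4b UMI at that depth.

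C3 was a hepatocyte gene. It stood at 3358 CPM (3335 to 3381) in control hepatocyte-like cells, which held 96.9% of its UMIs, and was seen in 83.8% of them at 1000 UMIs. The GS-KO value was 2351 CPM (2204 to 2504), with 83.1% of UMIs and 54.3% of cells. Within the control class, non-dividing cluster 14 was at 3847 CPM, dividing cluster 15 at 2303 CPM and cluster 4, led by Serpina1c and Mup genes, at 1879.8 CPM.

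Outside hepatocytes C3 was highest in monocyte-like and neutrophil-like cells. Control monocyte-like cells had 277 CPM (245 to 312) and GS-KO ones 167 CPM (129 to 212). Neutrophil-like cells had 268 CPM (208 to 341) and 70.8 CPM (44.4 to 107). The control values were lower in endothelial-like (86.0 CPM), NK/ILC-like (62.1), macrophage-like (59.7), B-like (49.2) and T-like cells (30.1). At 1000 UMIs, C3 was seen in 19.6% of control monocyte-like (12.6% to 28.4%) and 17.7% of neutrophil-like cells (10.7% to 26.8%), above the 2.85% of B-like cells (1.53% to 4.83%), with median depths before thinning of 8195, 2348 and 3668 UMIs.

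As a description, C3 was set beside 18 secreted hepatocyte genes counted in the same cells. The ratio in free RNA was not measured, and whether free hepatocyte RNA brought C3 to other classes was not tested. Apoc1 and Trf, which macrophage-like cells also held, were left out of a list of 20 after their values were seen. Intervals of these values cover the C3 count only and take the total of the 18 genes as exact. Control hepatocyte-like cells had 56.5 C3 UMIs per 1000 UMIs of the 18 genes, and the pooled value of this class is called the hepatocyte ratio. It was not the same in each cluster. With the full list of 20 genes, control clusters 14, 15 and 4 of this class had 48.2, 37.2 and 10.5. B-like, T-like and endothelial-like cells had 36.8, 40.4 and 38.9, all below the hepatocyte ratio. NK/ILC-like cells had 65.8 (42.1 to 97.8), an interval that holds the hepatocyte ratio. Neutrophil-like cells had 94.6 (73.3 to 120), macrophage-like cells 97.5 (91.5 to 104) and monocyte-like cells 334 (295 to 376).

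The GS-KO library held far less hepatocyte RNA outside hepatocytes, and monocyte-like cells were again highest. Its hepatocyte-like cells had 36.6 C3 UMIs per 1000, its monocyte-like cells 2276 (1760 to 2895) and its neutrophil-like cells 297 (186 to 450). The monocyte-like and neutrophil-like totals of the 18 genes were only 29 and 74 UMIs, so these intervals are too narrow. Macrophage-like cells had 83.8 C3 UMIs per 1000, while endothelial-like and T-like cells, at 36.95 and 39.8, were close to the hepatocyte ratio. NK/ILC-like cells had 0 C3 UMIs beside only 4 UMIs of the 18 genes. The 18 genes themselves were at 73.3 CPM in GS-KO and 831 CPM in control monocyte-like cells, and at 238 and 2836 CPM in neutrophil-like cells. C3 in monocyte-like cells was therefore above the hepatocyte ratio in both libraries. With all 20 genes the control values were 42.9 in hepatocyte-like, 166 in monocyte-like, 74.5 in neutrophil-like and 17.9 in macrophage-like cells, so for macrophage-like cells the side of the hepatocyte ratio turns with the list.

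Among monocyte-like cells, C3 followed classical markers. Cells were split after values were seen. Cells with mostly classical markers (such as Ly6c2 and Ccr2) held more than 2 UMIs of these for each non-classical marker UMI, and non-classical ones the reverse. The 49 control cells with mostly classical markers had 422 CPM (363 to 486) and the 43 with mostly non-classical markers 119.7 CPM (85.5 to 163). In the GS-KO library 23 classical-marker cells had 249.9 CPM (187 to 328) and 21 non-classical ones 30.5 CPM (8.31 to 78.1), from 4 UMIs. Another 17 control and 7 GS-KO cells met neither condition, with 220.3 and 177 CPM.

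**Figure D2:**
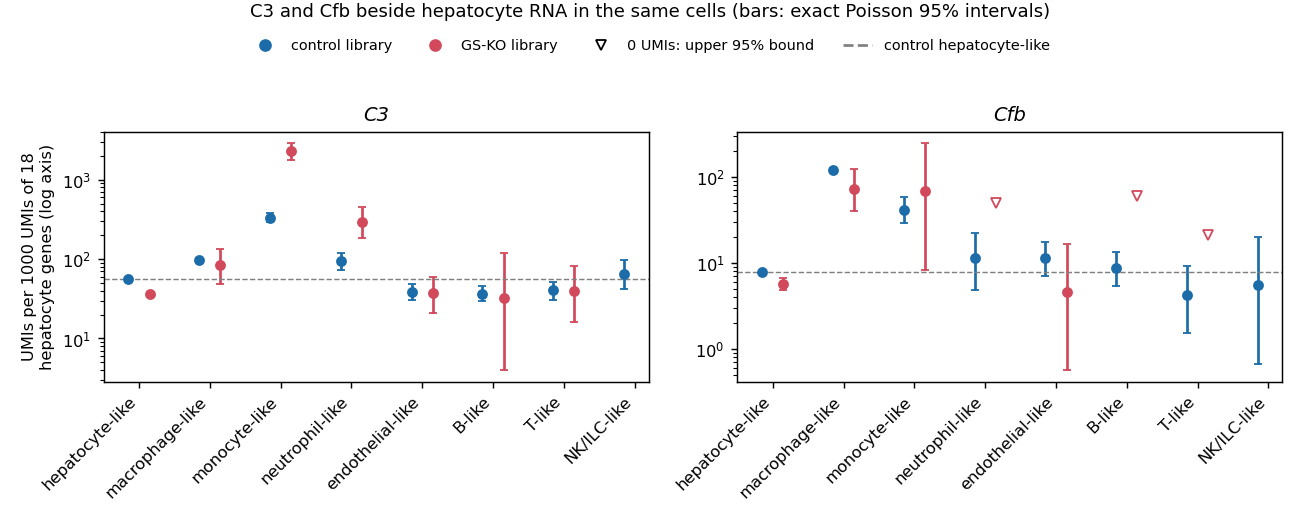
UMIs of C3 (left) and Cfb (right) per 1000 UMIs of 18 secreted hepatocyte genes in the same class, on log axes. Bars are exact Poisson 95% intervals of the C3 or Cfb count only. The dashed line is the control hepatocyte-like value. For C3 the monocyte-like values of 334 and 2276 lie above the line at 56.5, and for Cfb the macrophage-like value of 121 lies above the line at 7.87.

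Cfb, the protease of the alternative pathway, was also highest in hepatocyte-like cells, with a smaller amount in macrophages. Hepatocyte-like cells had 468 CPM (459 to 476) in the control against 366 CPM (310 to 430) in the GS-KO library, with 87.1% and 81.9% of its UMIs. Control macrophage-like cells had 74.4 CPM (70.3 to 78.6) and 9.69% of UMIs, and GS-KO ones 16.1 CPM (8.83 to 27.1) from 14 UMIs. Per 1000 UMIs of the 18 hepatocyte genes, Cfb stood at 121 in control macrophage-like cells against 7.87 in hepatocyte-like cells. At 1000 UMIs it was seen in 5.31% of control macrophage-like (3.88% to 7.06%) and 0.658% of B-like cells (0.136% to 1.91%).

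Cfp, which encodes properdin, sided with C1q. It stood at 681 CPM (669 to 694) in control and 662 CPM (609 to 719) in GS-KO macrophage-like cells, and at 5.12 CPM in control hepatocyte-like cells. No Cfp UMI was found in the 35 GS-KO hepatocyte-like cells, where 3 UMIs would amount to 7.37 CPM. Neutrophil-like cells had 92.1 CPM (58.4 to 138) and 83.7 CPM (54.7 to 123), so here the libraries overlapped, whereas C1qa in those cells did not. Monocyte-like cells had 177 and 106 CPM. Control endothelial-like cells had 203 CPM and GS-KO ones 12.7 CPM, the same direction as C1q in that class.

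The receptor gene C3ar1 was also a macrophage gene. Macrophage-like cells had 189.5 CPM (183 to 196) in the control against 157 CPM (132 to 186) in the GS-KO library, with 85.5% and 78.6% of its UMIs. Monocyte-like cells had 18.4 and 15.2 CPM, and control endothelial-like cells 28.7 CPM. Control hepatocyte-like cells had 1.03 CPM, so the cells richest in C3 and those richest in the C3a receptor were different classes. Control macrophage-like cells held C3 at 59.7 CPM beside their C3ar1.

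Within macrophages, C1q was nearly even across clusters while Cfp, C3ar1 and C2 were not. Cluster 5 (led by Cd163 and Marco), cluster 10 (Mmp12 and Cd207) and cluster 11 (Retnla, Gpnmb and Ms4a7) make up the class, and unnamed cluster 9 (Cx3cr1 and Ccr3 behind haemoglobin genes) is shown beside them. Control C1qa ranged from 7389 CPM in cluster 11 to 10129 CPM in cluster 5. Cfp was at 1093 CPM in cluster 5, 956 in cluster 9, 535 in cluster 10 and 348 in cluster 11. The GS-KO library gave the same order, with 1085, 823, 671 and 335 CPM.

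C3ar1 ran the other way between the Cd163 and Gpnmb clusters. It was at 107 CPM in control cluster 5, 72.8 in cluster 9, 219.7 in cluster 10 and 254 in cluster 11. In the GS-KO library it was at 86.8, 79.7, 137 and 243 CPM. C2 was at 55.3 CPM in cluster 5 and 78.2 CPM in cluster 10 but at 14.9 CPM in cluster 9 and 4.54 CPM (2.42 to 7.77) in cluster 11, and GS-KO cluster 11 held 0 UMIs of C2. Cfb was highest in cluster 5, at 96.6 CPM, and lower in cluster 11, at 34.3 CPM (27.8 to 41.7), and cluster 9, at 30.6 CPM (25.2 to 36.8), which overlap. These clusters were drawn without complement genes, so their differences are not built in by the clustering, but cells of 1 mouse are not replicates and no test was made.

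C4b in cluster 11 rested on a few cells. In the GS-KO library 3 of 19 cells held its 98 UMIs, with 54, 41 and 3 each. In the control 29 of 147 cells held 314 UMIs, while in cluster 5 196 of 287 cells held 786 UMIs. In GS-KO cluster 5, 3 of 10 cells held 14 UMIs, 11 of them in a single cell. C4b was therefore spread over most cells of cluster 5 in the control only, and lay in a minority of the cells of cluster 11 in both libraries.

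**Figure D3:**
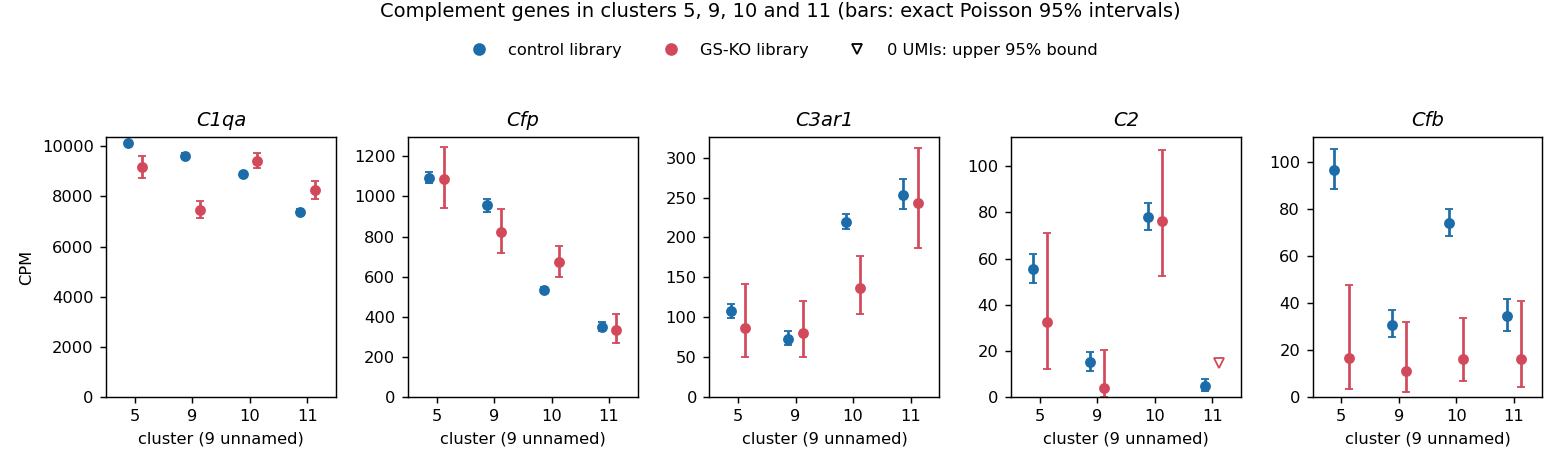
CPM of C1qa, Cfp, C3ar1, C2 and Cfb in macrophage-like clusters 5, 10 and 11 and in unnamed cluster 9, control in blue and GS-KO in red, with exact Poisson 95% intervals. Cfp is highest in cluster 5 and lowest in cluster 11, C3ar1 is higher in clusters 10 and 11 than in 5 and 9, and C2 is near 0 in cluster 11.

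The rest of the pathway showed how the 9 genes sit in the cascade. Of 56 listed complement genes in the matrices, 51 had at least 20 control UMIs, and 28 of these were highest in hepatocyte-like, 10 in macrophage-like, 7 in neutrophil-like, 4 in endothelial-like and 2 in B-like cells. For 44 of the 51 the interval of the highest class did not overlap that of the next. Of 43 genes with enough UMIs in both libraries, 41 had the same highest class in each. Fcnb, Cfd, C7 and Cd55b had 0 control UMIs, and Colec10 had 15. In the GS-KO library Fcnb had 31 UMIs, all outside the classes named above, C7 had 1, and Cfd and Cd55b had 0.

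C1r and C1s, the proteases that C1q carries, came from a different class than C1q itself. C1ra was at 65.6 CPM, C1rb at 45.2 CPM and C1s1 at 62.6 CPM in control hepatocyte-like cells, and their highest values elsewhere were 16.7, 9.56 and 5.97 CPM, all in endothelial-like cells. C1rl and C1s2 were also highest in hepatocyte-like cells, at 88.7 and 11.2 CPM. The 11 genes of the classical pathway list divided into 5 highest in macrophage-like cells (C1qa, C1qb, C1qc, C2 and C4b) and 6 in hepatocyte-like cells, though the intervals of the leading classes overlapped for C4b and C4a.

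The lectin pathway, which senses sugars on microbes, was split in the same manner. Mannose-binding lectin genes Mbl2 (1577 CPM) and Mbl1 (168 CPM) and the protease gene Masp2 (126 CPM) were highest in hepatocyte-like cells. Fcna, which encodes ficolin A, was highest in macrophage-like cells at 1474 CPM. Masp1, at 179 CPM, and Colec11, at 39.4 CPM, were highest in endothelial-like cells. Terminal pathway genes, whose products form the membrane pore, were hepatocyte genes (C8g at 805 CPM, C9 at 16.0 CPM) except C6, at 442 CPM in macrophage-like cells.

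Regulators and receptors had their own places. Soluble regulators were highest in hepatocyte-like cells, such as Cpb2 (1434 CPM), which inactivates C3a and C5a, and Vtn (1183 CPM) and Clu (1061 CPM), which hinder pore assembly. Apart from Cd59b, at 3.31 CPM in hepatocyte-like cells, membrane regulators were highest elsewhere, with Cd55, which breaks up the C3-cutting enzymes, at 703 CPM in B-like cells and Cd59a, which blocks the pore, at 400.2 CPM in endothelial-like cells. Receptors for C3 fragments were highest in macrophage-like cells (Vsig4, 1941 CPM), neutrophil-like cells (Itgam, 525 CPM) and B-like cells (Cr2, 94.5 CPM). The C5a receptor gene C5ar1 was highest in neutrophil-like cells, at 373 CPM, unlike C3ar1.

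**Figure D4:**
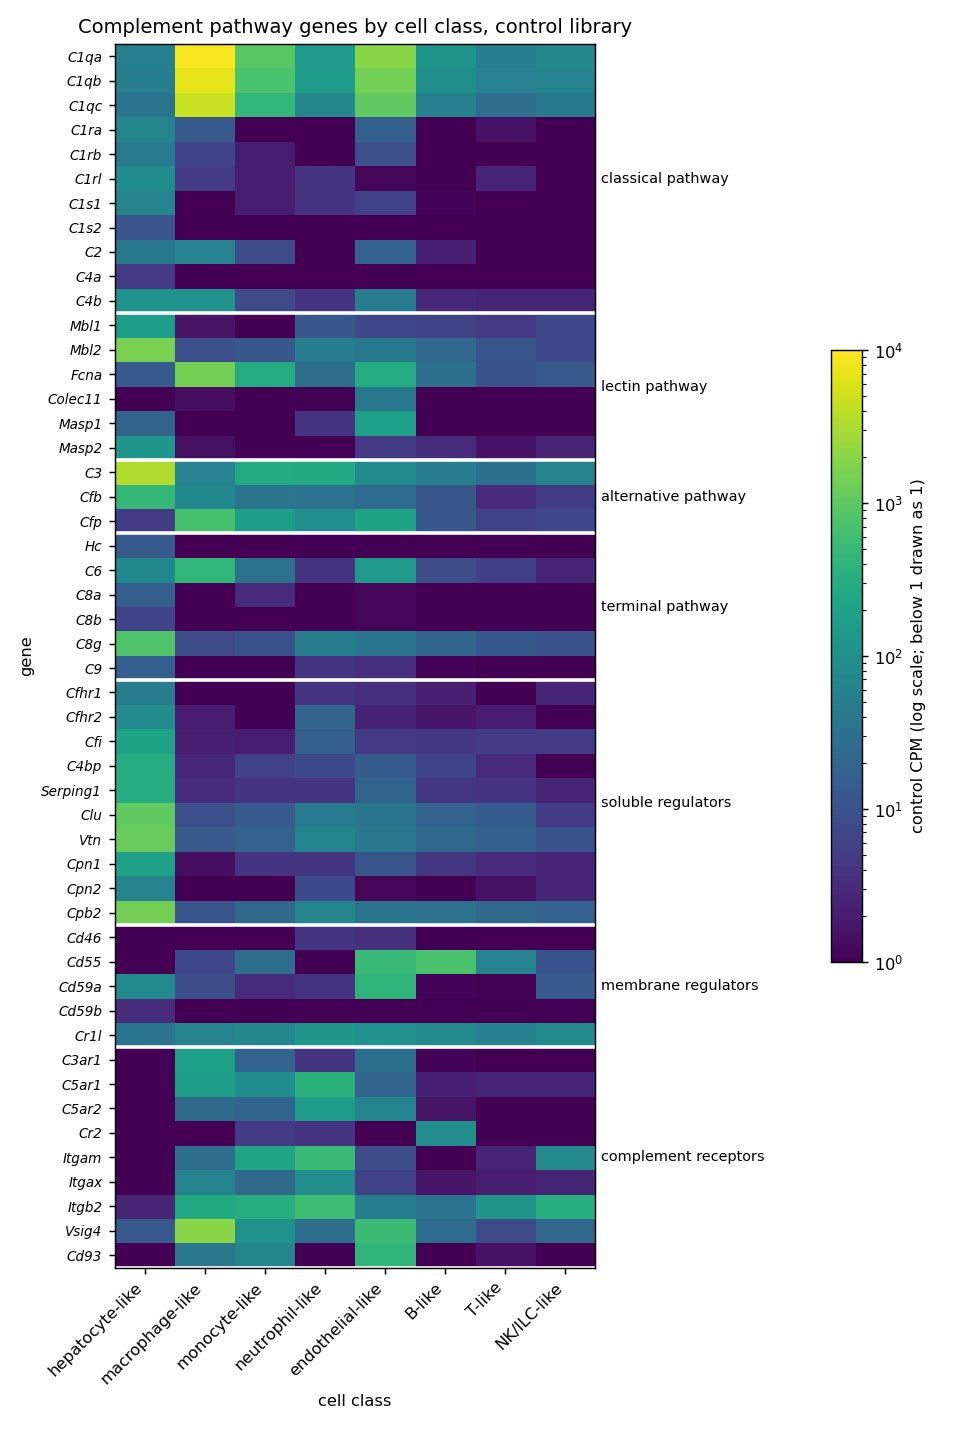
Control CPM on a log colour scale for complement genes with at least 20 control UMIs (rows, grouped by pathway) in 8 cell classes (columns). Bright cells for C1q, Fcna, C6 and Vsig4 fall in the macrophage-like column, and most others fall in the hepatocyte-like column.

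Genes whose levels over the 8 control classes ran most like each member were listed as a description, using Pearson's r of log2(CPM + 10) over 10508 genes; the classes share a library, so no p is given. C1qa was closest to C1qc, C1qb and Timd4, with r of 0.999, 0.998 and 0.997, and Cfp to Csf2rb2, Anxa3 and Wfdc17. C3ar1 was closest to Gm14221, Fblim1 and Kcnj10, at r of 0.991 or 0.990. For C3 the closest were F5, Gch1 and Mettl7a1, at r of 0.972 to 0.970, and for Cfb Map1lc3a, Trf and Rassf8. C4b was closest to Sh3bgrl2, Fam135a and Gprc5c, and C2 to C4b itself, at 0.978, followed by Thrb and Sh3bgrl2.

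Between the libraries, macrophage-like cells kept their C1q and had less C3 and Cfb in the GS-KO mouse. Over both libraries a gene needed at least 20 UMIs in the class, and a ratio of GS-KO over control CPM of at least 1.5, or its inverse, counted as a change. By this measure 2 of 9 members, C3 and Cfb, were lower and 0 were higher, beside 20% of 11258 genes lower and 11% higher, so the count is close to the background. The C3 ratio was 0.309 (0.176 to 0.504), from 1011 and 16 UMIs, and the Cfb ratio 0.217 (0.118 to 0.366), from 1259 and 14 UMIs. The median log2 ratio of the 9 was -0.04, and that of all genes -0.08.

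The other 7 stayed within the limit. The ratio was 1.00 for C1qa (0.977 to 1.02), 1.13 for C1qb and 1.16 for C1qc, 0.972 for Cfp (0.892 to 1.06), 0.828 for C3ar1 (0.692 to 0.983) and 0.770 for C2 (0.544 to 1.06). C4b had a ratio of 1.42 (1.19 to 1.69), but 5 alternative settings put it between 0.556 and 0.664, and it was 0.918 without the cell with most C4b in each library, so no direction is given. In the GS-KO library 98 of its 140 UMIs lay in the 3 cells of cluster 11 described above, and the cluster ratios were 0.523, 0.684 and 3.56 in clusters 5, 10 and 11, where 17.7% of genes were called higher in cluster 11. Cfb was lower in each of clusters 5, 10 and 11, at ratios of 0.169, 0.220 and 0.466, the last with an interval of 0.124 to 1.23, beside 32.1%, 23.3% and 23.5% of all genes called lower in these clusters. The share of cluster 5 in the class differed, with 287 of 829 control and 10 of 51 GS-KO cells.

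Other gene groups moved in the same macrophage-like cells, and their part in the C3 and Cfb values was not tested. The 18 hepatocyte genes fell from 613 to 220.3 CPM, and 17 of the full list of 20 were lower. Interferon response genes were lower for 14 of 19 and higher for 1, with a median log2 ratio of -1.01. Early response and heat shock genes were higher for 11 of 15, with a median of 1.40. Over all genes of the class, 20% were lower and 11% higher. The clusters differed for the early response and heat shock genes. Cluster 5 had 5 lower and 3 higher, with a median of 0.07, beside 32.1% of all genes lower and 15.4% higher. Clusters 10 and 11 had 10 and 13 higher and 0 lower, beside 12.6% and 17.7% of all genes higher and 23.3% and 23.5% lower. C3 per 1000 UMIs of the 18 hepatocyte genes was 97.5 in the control against 83.8 (47.9 to 136) in the GS-KO library, whereas Cfb was 121 and 73.3 (40.1 to 123).

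Hepatocyte-like cells had less C3 and Cfb per UMI in the GS-KO library, by less than the limit. The C3 ratio was 0.700 (0.656 to 0.746) and the Cfb ratio 0.782 (0.661 to 0.920), and those of C2 and C4b were 0.715 (0.368 to 1.25) and 1.09 (0.805 to 1.46). A single GS-KO cell held 385 of the 957 C3 UMIs, or 40.2%, and without the top cell of each library the C3 values were 3339 and 1761 CPM, a ratio of 0.528. The median cell had 2743 C3 CPM in the control against 693 in the GS-KO library, at median depths of 30325 and 5458 UMIs. The clusters of the class went opposite ways: C3 had a ratio of 0.602 (0.560 to 0.645) in cluster 14, where 30.9% of genes were called lower, and 1.65 (1.40 to 1.93) in cluster 4, where 30.3% were called higher, with 28 and 6 GS-KO cells. Over the class C3 was lower by each of the measures given, and 4 alternative settings put its ratio past the limit, at 0.381 to 0.619. Cfb passed the limit under 4 as well, at 0.561 to 0.662. C2 passed it at 0.521 without the top cell, 0.537 with doublets kept and 0.633 at a 10% mitochondrial limit. C4b turned to 0.595 with cells thinned to 1000 UMIs and 0.468 at the 10% limit. A single GS-KO cell held 19 of its 48 UMIs, so no direction is given for C4b. The 35 GS-KO cells are few and shallow.

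By the same count, 5 of 9 members were lower in GS-KO hepatocyte-like cells and 0 higher, beside 33.1% of 11418 genes lower and 20.1% higher. The 5 were C1qa, C1qb, C1qc, Cfp and C3ar1, all of them at 57.1 CPM or less in the control. For Cfp and C3ar1 the GS-KO library held 0 UMIs and an upper bound on the ratio above 1, so its depth could not show a difference. At Leiden resolution 0.5 the count was 2 lower and 4 higher, with C1qa at 1.85, C1qb at 2.10, C1qc at 2.68 and Cfp at 2.55. The direction of these 4 therefore turns with the clustering. The share of all genes called at that resolution is not given, so the count there has no background beside it. The 5 are genes of macrophage-like cells, and they were also lower in endothelial-like cells of the GS-KO library.

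Of 11 classical pathway genes in hepatocyte-like cells, 8 passed the limit downward and 0 upward, beside 33.1% of 11418 genes lower and 20.1% higher. The median log2 ratio was -0.67, beside -0.11 for all genes. The 8 were the 3 C1q genes, which turned higher at Leiden resolution 0.5, and 5 others. These 5 were C1ra (0.636), C1rb (0.326), C1s1 (0.628), C1s2 (0.656) and C4a (0.512). Of these 5 only the C1rb interval, 0.119 to 0.712, stayed below 1. Among soluble regulators C4bp (0.655) and Serping1 (0.587), the C1 inhibitor, were lower and Cfhr2 (2.13) higher, while Cpb2 (0.841) and Vtn (0.941) were not called. Terminal pathway genes divided, with Hc (0.537) and C6 (0.637) lower and C8a (2.13), C8b (1.94) and C9 (1.54) higher, the last 3 from 5 to 14 GS-KO UMIs. None of these 3 reached 1.5-fold higher within clusters 4 or 14. In cluster 14 C8a had a ratio of 0.314 and C9 had 0 GS-KO UMIs, and in cluster 4 the ratios were 1.01 for C8a, 0.550 for C8b and 0.538 for C9. C8b had a ratio of 1.41 in cluster 14, from 1 GS-KO UMI. Cd59a and Cr1l, which protect the cell itself, were lower at 0.564 and 0.426, and Cd59b was higher at 2.23 from 3 GS-KO UMIs. The only lectin pathway gene called was Fcna, and the receptor genes called with it (C3ar1, C5ar1, Itgb2 and Vsig4) likewise had 0 GS-KO UMIs.

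In macrophage-like cells 3 of 8 receptor genes were higher and 0 lower, beside 11% of 11258 genes higher and 20% lower. C5ar1 went from 172 to 286 CPM (ratio 1.66, 1.45 to 1.89), Itgam, a chain of complement receptor 3, from 26.5 to 69.2 CPM (2.61, 1.96 to 3.42), and Cd93 from 39.6 to 83.1 CPM (2.10, 1.62 to 2.68). Within the class the clusters differed. Itgam was higher in cluster 11, at a ratio of 3.53 (2.56 to 4.80), but had ratios of 0.524 and 0.378 in clusters 5 and 10, from 2 and 3 GS-KO UMIs with intervals that hold 1. Cd93 had a ratio of 1.35 in cluster 11, which held all 72 of its GS-KO UMIs, and 0 GS-KO UMIs in clusters 5 and 10. Cluster 11 made up 19 of 51 GS-KO and 147 of 829 control cells. C5ar1 had ratios of 2.48, 1.28 and 1.72 in clusters 5, 10 and 11. Vsig4 was at 1941 and 2174 CPM and Itgb2 at 266 and 231 CPM. Fcna and C6 were not called, with ratios of 1.18 and 1.11. The other 10 pathway genes that were called lower there, besides C3 and Cfb, had control values of 13.1 CPM or less: Mbl2, Masp2, C8g, Cfhr2, C4bp, Clu, Vtn, Cpb2, Cd55 and Cd59a. Colec11 and Serping1 were called higher from 2 and 6 GS-KO UMIs.

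In monocyte-like cells 6 of 7 tested members were lower and 0 higher, beside 17.4% of 6408 genes lower and 11.8% higher. The C3 ratio was 0.602 (0.453 to 0.790) and the C1qa ratio 0.0192 (0.00768 to 0.0396). Cfb had a ratio of 0.145 from 34 and 2 UMIs. Cfp had a ratio of 0.600 (0.418 to 0.844), which 4 alternative settings moved inside the limit, to between 0.748 and 1.11, and C3ar1 was not called, at 0.824. All 17 tested interferon response genes were lower in the same cells, and 12 of 13 secreted hepatocyte genes were lower too. Kupffer cell genes were lower for 10 of 10, with a summed level of 1371 CPM in the control and 68.2 CPM in the GS-KO library. The part of these lists in the C1q and C3 values was not tested. Among other complement genes Itgam (1.501) and Cd93 (2.01) were higher there, and Fcna, Vsig4, C6, Cpb2 and C5ar2 were lower, each from 0 or 1 GS-KO UMI.

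Endothelial-like cells had 8 of 9 members lower and 1 higher, beside 16.4% of 7690 genes lower and 14% higher. The one higher, C2, had a ratio of 1.59 (0.758 to 3.40) from 15 and 18 UMIs, an interval that holds 1, and a ratio of 1.43 with doublets kept. Of the 8, C4b (0.324) turned to 2.26 with cells thinned to 1000 UMIs. The C1q genes, Cfp and C3ar1 were lower along with the macrophage genes Fcna, C6 and Vsig4, at ratios of 0.0949, 0.0114 and 0.0657. Itgb2, C5ar1, Mbl2, C8g, Vtn and Cpb2 were lower too, from 10 GS-KO UMIs or fewer. Serping1, Colec11 and Cd93 went the other way and were higher, at 4.32, 2.13 and 1.62. The class was the one in which 12 control cells held most C1q.

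In neutrophil-like cells 3 of 4 tested members were lower and 0 higher, beside 20.4% of 2886 genes lower and 13.2% higher. C3 had a ratio of 0.264 (0.155 to 0.433) and Cfp 0.908 (0.498 to 1.67), and the receptor gene C5ar1, not a member, was higher at 1.70 (1.32 to 2.20). B-like cells had 6 of 6 tested members lower, beside 26.2% of 7167 genes lower and 6.57% higher, and T-like cells 4 of 4, beside 28.4% of 7185 lower and 7.27% higher. The 6 were the C1q genes, C3, Cfb and Cfp, and the 4 were the C1q genes and C3. Other complement genes lower in B-like cells were Cd55 (703 to 451 CPM), Cr2 (94.5 to 55.3 CPM), Mbl2, Fcna, C8g, Clu, Vtn, Cpb2, Itgb2 and Vsig4. In T-like cells Mbl2, Fcna, C8g, Clu, Vtn, Cpb2 and Itgb2 were lower. No listed complement gene was called higher in either class. Secreted hepatocyte genes were lower for 12 of 12 in neutrophil-like, 19 of 19 in B-like and 16 of 19 in T-like cells, and Kupffer cell genes for 6 of 6 in B-like and 4 of 4 in T-like cells. Their part in the C3 and C1q values was not tested. Itgax was lower in neutrophil-like cells, at 0.536 (0.266 to 1.05).

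**Figure D5:**
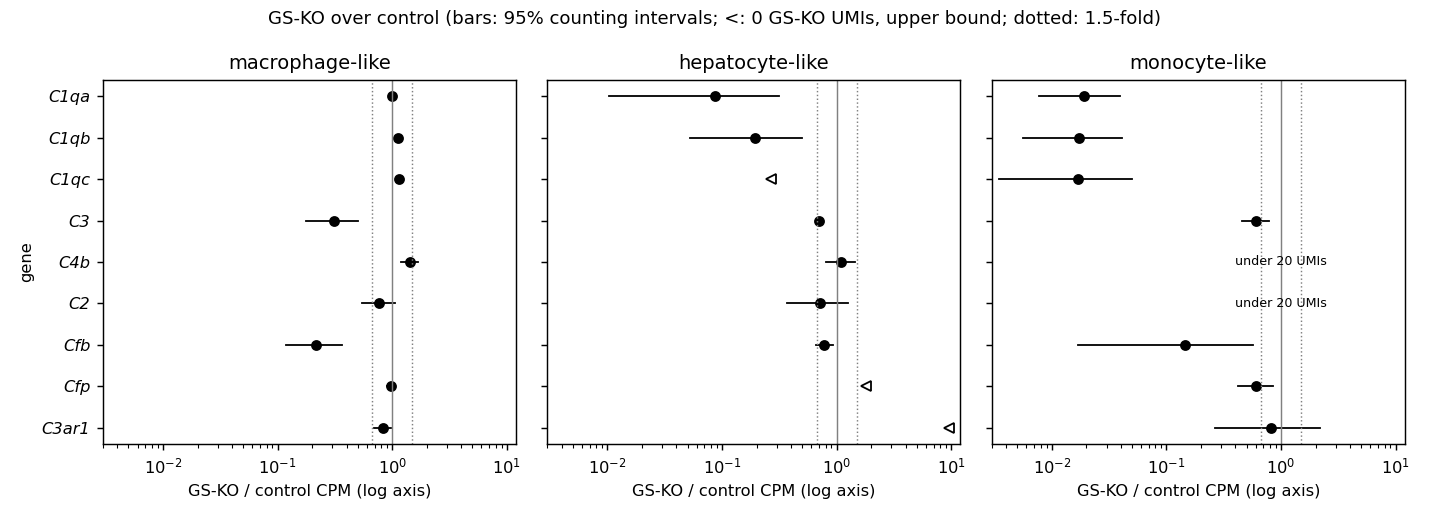
Ratio of GS-KO over control CPM on a log axis for the 9 genes in 3 classes, with 95% counting intervals; open triangles are upper bounds where the GS-KO library had 0 UMIs, and dotted lines mark 1.5-fold. In macrophage-like cells only C3 and Cfb lie wholly outside the dotted lines, and in monocyte-like cells the C1q genes lie near 0.02.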

How the data were processed

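Reads were processed by the authors with Cell Ranger on mm10, per the submitters' processing notes; the deposited matrices hold raw UMI counts per gene and barcode (software version 3.1.0, per the file headers). Barcodes with at least 500 UMIs, 200 genes and at most 20% mitochondrial UMIs were kept (3275 control, 662 GS-KO), less 24 and 7 Scrublet doublets (expected rate 5%). Total depth was 64770011 and 8805330 UMIs. Both libraries were clustered together: 2000 variable genes, of which 1975 remained without complement genes, 30 principal components, 15 neighbours, Leiden resolution 1 and seed 1, giving 18 clusters. Library and group coincide, so no batch was corrected for. A name needed at least 3 markers at 2-fold (10 CPM added) in at least 20% of cells, more than any other class, and no class with more in the 10 leading genes (5 markers if none there).

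CPM values carry exact Poisson intervals, shares Clopper-Pearson intervals, and ratios conditional binomial intervals (95%). Median log2 ratios used a prior count of 0.5. Intervals cover counting error, not differences between mice. UMIs were not divided by gene length, since each transcript is counted at its 3′ end, and genes were not ranked against each other by level. The split of C1q over its chains is a share of UMIs only. Class ratios were computed for classes with at least 30 cells per library. Cluster ratios had no such minimum, and cluster 4, for example, held 6 GS-KO cells. All members were named, with the listed complement genes past the fold in each class compared and leading genes of the lists. Genes past the fold in single clusters were not all named. Promoters and names came from RefSeq (GRCm38.p6); positions from GENCODE M21, which held 32158 of the gene identifiers. The members and lists were chosen with earlier results of these data known. Values of 1 listed gene are not reported here; it stays in the list counts. The scripts were tested on simulated data. Alternatives covered cell weighting, depth, scaling, resolution, doublets, the mitochondrial limit and the clustering genes. Clustering used scanpy 1.11.5 with igraph 0.11.9 and scikit-learn 1.9.0, and the intervals scipy 1.17.1, under Python 3.11.15.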

Additional observations from a re-analysis of the deposited data

Results flagged for a closer look

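Barcodes above the mitochondrial limit, which no comparison used, held clear complement RNA. Among their non-mitochondrial UMIs C1qa was at 1073 CPM in the control and 638 CPM in the GS-KO library. C3 was at 3854 CPM in the control and 3259 CPM in the GS-KO library. These 4 values drew attention because they exceed the level of 3 UMIs by far. The barcodes were not assigned to classes.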

How the results depend on the processing

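Over 55 ratios and 515 alternative values, 483 kept their side of the 1.5-fold limit and 32 did not. The C3 ratio in hepatocyte-like cells, 0.700, became 0.491 as a mean over cells, 0.381 with cells thinned to 1000 UMIs, 0.528 without the cell with most UMIs, 0.619 at Leiden resolution 0.5 and 0.860 with complement genes in the clustering. The C1q ratio in macrophage-like cells, 1.08, was 1.03 thinned, 1.06 without the top cell, 1.04 and 1.11 at resolutions 0.5 and 2, 1.06 with doublets kept, 1.10 with complement genes in the clustering, and, added after seeing the data, 1.02 with clusters 2 and 9 joined and 1.10 with clusters weighted as in the control. Members lower in hepatocyte-like cells went from 5 to 8 when thinned, 8 without the top cell and 2 at resolution 0.5, where 4 were higher. In macrophage-like cells they went from 2 to 4 when thinned. The shares of all genes called under these settings are not given, so these counts cannot be set against a background. At resolution 0.5, which drew cluster boundaries differently, hepatocyte-like ratios turned to 1.85 for C1qa, 2.10 for C1qb, 2.68 for C1qc, 2.14 for all C1q and 2.55 for Cfp. Thinned, C4b in endothelial-like cells turned to 2.26 and Cfp in monocyte-like cells to 1.11. The control share of C1q in macrophage-like cells, 72.4%, was 88.6% and 69.2% at resolutions 0.5 and 2, 74.1% with doublets, 73.7% at a 10% mitochondrial limit, 72.1% with complement genes in the clustering and 91.5% with clusters 2 and 9. The share of C3 in hepatocyte-like cells, 96.9%, was 97.8%, 97.2%, 94.1% (10% limit) and 95.6% (complement genes). The causes were not tested. No paired analysis was possible because each group is 1 mouse. The 35 GS-KO hepatocyte-like and 51 macrophage-like cells limit every ratio.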
